A study of Rattus norvegicus with 35 samples.

Results

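Solute carriers are membrane proteins that move sugars, amino acids, ions, metals, lactate, vitamins and nucleotides across the plasma membrane and the membranes of organelles. The family is named by a number for the transport family and a number for the gene, as in Slc2a1, the glucose carrier that most cells use for basal uptake. Cardiac myocytes take up glucose, lactate, carnitine and fatty acids for their energy supply, and their mitochondria exchange adenine nucleotides, phosphate and substrates with the cytosol through carriers of the Slc25 family. Members were taken from an array of rat genes as every probe-set (the group of probes for a transcript) with a single gene symbol that starts with Slc followed by a digit, leaving out Slc8a1. For each gene the probe-set with the highest mean log2 intensity over all arrays was used. This gave 119 genes of 4736 genes with a single symbol on the array, measured by 176 probe-sets, and 42 of the 119 have more than 1 probe-set. By symbol, 8 are glucose carriers, 19 amino acid carriers, 33 ion carriers, 12 mitochondrial carriers and 47 carriers of other solutes. The mitochondrial group is the Slc25 family as a whole, although Slc25a17 in it is a carrier of peroxisomes.

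The samples were ventricular cells of neonatal rats, parted by pre-plating into cultures enriched for cardiac myocytes (CM) and cultures of fibroblasts (FB). Strain and sex are not given in the sources used here. Each population was exposed to mechanical stress (MS, 24 h of cyclic stretch on plates coated with collagen I, with unstretched cells on the same kind of plate as control), ionising radiation (IR, 8.5 Gy of X-rays) or ultraviolet radiation (UV, 10 J/m2 of UVC). Irradiated and sham-treated cells were collected 24 h later. There were 35 Affymetrix rat genome arrays, 3 in each of the 12 groups except the CM controls of the UV experiments, of which there were 2. The CM-enriched cells of the IR and UV experiments, treated and control, were elutriated before RNA isolation and are called CM-enriched fractions, while stretched CM-enriched cultures and all fibroblasts were not. The fibroblasts were subcultured and kept in another serum than the CM-enriched cells. The cultures were enriched and not pure. Among the CM-enriched samples, the study's methods give the lowest share of myocytes for the MS cultures and the highest for the UV fractions. The study's methods describe independent experiments, while the titles give only a number for each, and p-values rest on the spread between these arrays.

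A change is the log2 intensity of treated minus control arrays of the same numbered experiment, with its standard error (SE), and a gene is called when its p-value, adjusted over all 8740 probe-sets tested, is under 0.05. A log2 value of 2.78 is the floor to which the lowest intensities of all arrays were raised, so that values at the floor have no order. A member has low signal when its mean log2 intensity over all arrays is below 5.36, the median of all probe-sets. This applied to 61 of the 119 members: 3 of 8 glucose carriers, 14 of 19 amino acid carriers, 19 of 33 ion carriers, 1 of 12 mitochondrial carriers and 24 of 47 others. A further limit held for 19 members, which lay at the floor on more than 50% of the arrays. Among these were Slc2a2 (glucose carrier of liver and pancreatic islets) and Slc1a6 (glutamate carrier of the cerebellum), at the floor on all 35 arrays, Slc17a7 (vesicular glutamate carrier of neurons), on 34, and Slc5a2 (glucose carrier of the kidney tubule), on 31. Of the genes chosen to be named in any case, Slc1a5, Slc38a2 and Slc20a1 had no probe-set of their own symbol here.

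The arrays of the third IR experiment on fibroblasts stood apart before any comparison. On both of them, control and treated, 243 of 8740 probe-sets (2.78%) lay more than 1 log2 unit outside the range of the other 16 fibroblast arrays. Any other fibroblast experiment had at most 12 such probe-sets. Among CM experiments, set against the other CM arrays, the number was at most 36 for a pair and 39 for the unpaired UV array. In the third IR experiment on fibroblasts 5 of the 119 members (4.2%) lay outside in this way, and all were above. Slc2a1 was at 11.49 in the control and 11.46 in the treated array, against 8.19 to 8.95 on the other fibroblast arrays, and its other probe-set showed the same (10.45 and 10.44 against 6.25 to 7.34). Slc2a3, a glucose carrier with high affinity for its substrate, was at 9.28 and 9.83 against 5.84 to 7.81. Slc16a3, which carries lactate out of cells, was at 8.84 and 8.82 against 5.04 to 6.88. Slc11a2, a carrier of ferrous iron, was at 9.46 and 9.35 against 7.15 to 8.03, and Slc16a6 at 5.56 and 5.52 against 2.78 to 3.94. Because control and treated array shared these levels, the change after IR carries little of them, but the comparison of untreated populations does, and it is given with and without this experiment.

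After UV the carriers changed in both directions in both populations. Of the 119 members, 14 rose and 12 fell in the CM-enriched fractions (21.8%), where 16.8% of all probe-sets were called (8.62% higher and 8.16% lower). In fibroblasts 12 rose and 16 fell (23.5%), where 22.9% of all probe-sets were called (11.7% higher and 11.2% lower). Most calls were made in members at or above the median signal, with 12 higher and 11 lower of 58 in CM-enriched fractions (39.7%, against 26.9% of all probe-sets in that range) and 11 higher and 13 lower in fibroblasts (41.4% against 37%, which divide into 19.1% higher and 18% lower). The 26.9% divide into 13.7% higher and 13.2% lower. Of the 61 members with low signal, 2 rose and 1 fell in CM-enriched fractions, while 1 rose and 3 fell in fibroblasts, where 6.64% (3.57% higher and 3.07% lower) and 8.76% (4.35% higher and 4.42% lower) of all low-signal probe-sets were called. The median change of all members was 0.00 in CM-enriched fractions and 0.03 in fibroblasts.

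**Figure D1:**
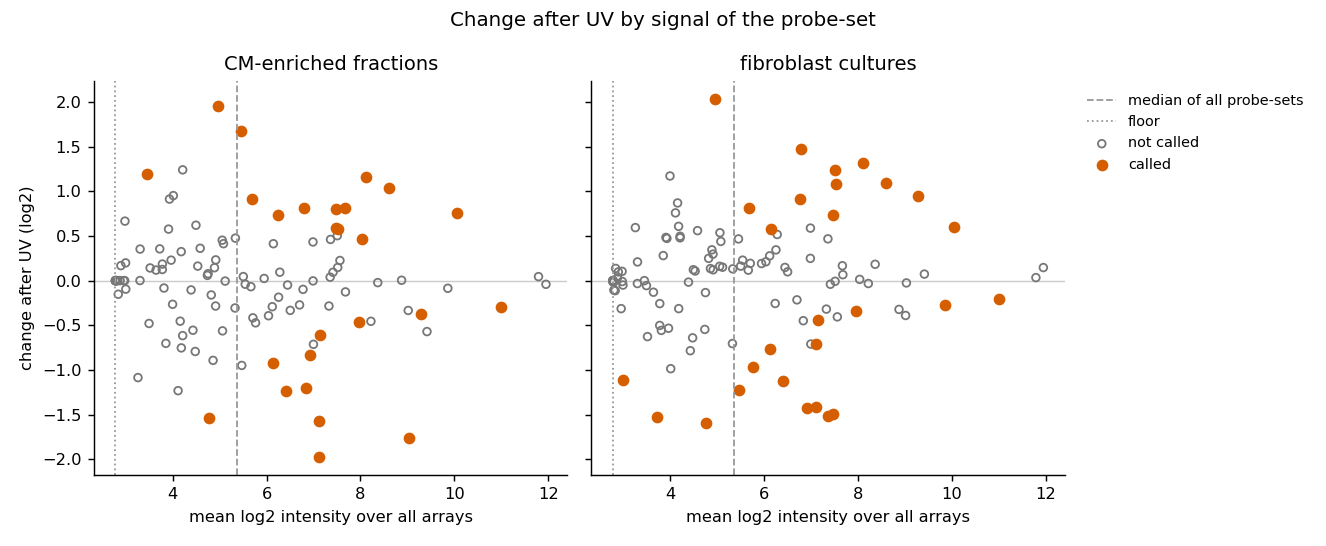
Change after UV (log2, treated minus control) of the 119 carriers against their mean log2 intensity over all 35 arrays, for CM-enriched fractions (left) and fibroblasts (right). Filled points are members called at an adjusted p under 0.05, the dashed line is the median of all probe-sets (5.36) and the dotted line the floor (2.78). Most called members lie to the right of the dashed line, and only 3 and 4 lie to the left of it.

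Many calls were shared by the populations. Of the members called, 17 were called in the same direction in both, which is 65.4% of the 26 called in CM-enriched fractions and 60.7% of the 28 called in fibroblasts. Over all probe-sets the shared part was 55.1% and 40.4%. Higher in both were Slc12a4, Slc15a4, Slc25a10, Slc30a1, Slc3a2, Slc5a3, Slc5a6 and Slc6a8, and lower in both were Slc11a2, Slc16a3, Slc25a26, Slc25a5, Slc41a2, Slc41a3, Slc4a4, Slc6a6 and Slc7a1. Slc16a1 and Slc40a1 were called in opposite directions. The difference between the populations in the change after UV was called for 5 members (4.2%), where it was called for 6.35% of all probe-sets (3.63% with the higher change in CM and 2.72% with the lower): Slc2a1, Slc16a1, Slc40a1, Slc37a1 and Slc5a1.

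**Figure D2:**
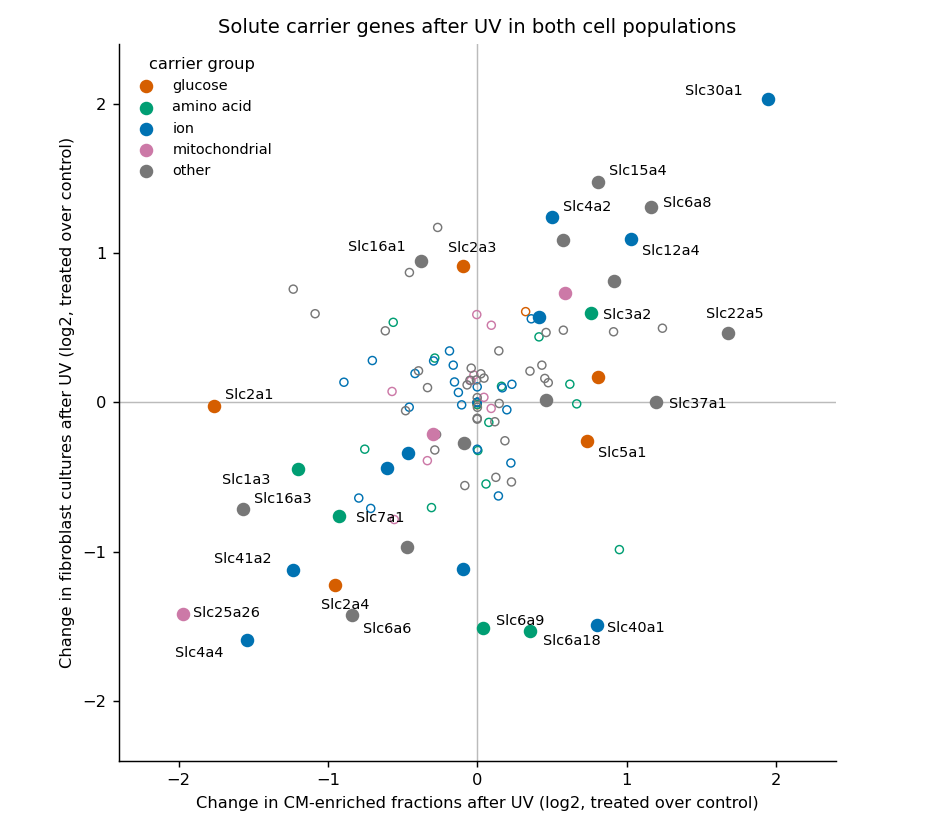
Change after UV (log2, treated minus control) of each carrier in CM-enriched fractions (horizontal axis) and in fibroblasts (vertical axis), coloured by carrier group. Filled points are members called in at least 1 population. Slc30a1 lies at the upper right (1.95 and 2.03), Slc25a26 at the lower left (-1.97 and -1.41), Slc40a1 at the lower right (0.80 and -1.49) and Slc2a1 on the horizontal axis at the left (-1.76 and -0.03).

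Promoter sequences from RefSeq (rat build GRCr8) are shown for Slc30a1 and Slc40a1, metal exporters called after UV in both populations, and for Slc2a1 and Slc16a1, whose change after UV differed between the populations. Each is the 250 bases before the annotated start, written 5′ to 3′ on the strand of the gene. Slc30a1 lies at chr13:106021769-106022018 on the plus strand, Slc40a1 at chr9:55543461-55543710 on the minus strand, Slc2a1 at chr5:138002272-138002521 on the plus strand and Slc16a1 at chr2:194812410-194812659 on the plus strand. Capitals mark the core of the metal response element in Slc30a1 and the GC box in the other 3.
Slc30a1: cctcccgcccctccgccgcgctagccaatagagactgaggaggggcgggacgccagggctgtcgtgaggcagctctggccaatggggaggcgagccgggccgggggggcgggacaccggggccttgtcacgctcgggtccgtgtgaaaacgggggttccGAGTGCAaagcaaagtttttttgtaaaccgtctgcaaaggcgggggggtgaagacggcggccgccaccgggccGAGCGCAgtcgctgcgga
Slc40a1: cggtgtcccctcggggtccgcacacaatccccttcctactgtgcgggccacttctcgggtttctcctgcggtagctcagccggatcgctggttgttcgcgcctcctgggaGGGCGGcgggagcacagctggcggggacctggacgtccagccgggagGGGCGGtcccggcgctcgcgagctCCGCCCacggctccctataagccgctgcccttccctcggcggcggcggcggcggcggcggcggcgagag
Slc2a1: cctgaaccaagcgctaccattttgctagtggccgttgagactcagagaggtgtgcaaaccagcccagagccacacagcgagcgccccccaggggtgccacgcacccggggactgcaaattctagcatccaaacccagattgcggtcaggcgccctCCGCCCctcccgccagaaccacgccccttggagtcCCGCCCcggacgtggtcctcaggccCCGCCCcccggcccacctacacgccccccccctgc
Slc16a1: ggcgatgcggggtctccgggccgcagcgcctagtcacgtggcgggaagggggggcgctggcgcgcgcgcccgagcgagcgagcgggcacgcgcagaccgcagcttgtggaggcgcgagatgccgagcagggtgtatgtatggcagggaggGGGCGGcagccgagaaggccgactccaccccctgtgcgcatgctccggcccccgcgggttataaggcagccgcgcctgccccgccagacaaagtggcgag

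The metal response element core was searched as TGCACNC or TGCGCNC and, for the other strand, GNGTGCA or GNGCGCA, and the GC box as GGGCGG and CCGCCC. No base of these 4 promoters lies in a match of both. Slc30a1 has 2 matches to the element core, Slc2a1 and Slc16a1 have 1 each, and Slc40a1 has 0. At least 1 match is found in 20.6% of 33469 promoters of the same length and in 36 of the 111 promoters found for members (32.4%). GC boxes occur in 30.5% of all promoters and 46.8% of the members' promoters, with 3 in Slc30a1, 3 in Slc40a1, 3 in Slc2a1 and 1 in Slc16a1. The 111 promoters belong to 100 of the 119 genes. A match describes these letters only.

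Cell type markers also moved after UV, and since the samples are bulk RNA, fewer cells of a type and less RNA per cell cannot be told apart. In fibroblast cultures 6 of 7 myocyte markers on the array fell (median change -1.10), and their summed level went from 14.07 to 14.33 in controls to 12.84 to 13.34 after UV (log2). Of 4 smooth muscle markers 3 fell and of 8 fibroblast markers 3 fell, while 2 of 4 leukocyte markers on the array, Cd14 and Csf1r, rose, with a summed level of 7.09 to 7.44 in controls and 7.93 to 8.14 after UV. Cd74 lay at the floor on 31 of all 35 arrays. In CM-enriched fractions 1 of 7 myocyte markers fell (median -0.27, summed level 15.55 to 15.59 in controls and 15.32 to 15.44 after UV), 3 of 8 fibroblast markers fell (13.07 to 13.86 and 12.52 to 13.4) and 2 of 4 smooth muscle markers fell (12.22 to 12.34 and 11.66 to 11.8). No endothelial marker of the 4 on the array was called in either population. Their summed level in CM-enriched fractions was 7.435 to 9.027 in controls and 7.232 to 7.672 after UV. Pecam1 changed by -1.24 there (adjusted p = 0.123). Of the carriers higher in CM than in FB controls, Slc2a4, Slc16a3, Slc25a5, Slc25a26 and Slc41a3 fell in fibroblasts after UV. Slc16a1 and Slc25a10 rose there, and the others, Slc25a3 among them, were not called. Of the carriers lower in CM than in FB controls, Slc4a4, Slc7a1 and Slc41a2 fell in CM-enriched fractions, and Slc3a2, Slc27a1 and Slc40a1 rose. Several of these calls were lost when arrays were left out. The part of these shifts in the changes of the carriers was not tested.

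Among the 8 glucose carriers, 2 rose and 1 fell in CM-enriched fractions (37.5%, against 16.8% of all probe-sets). In fibroblasts 1 rose and 1 fell (25% against 22.9%). Slc2a1 was at 9.73 and 9.09 in the CM controls and at 7.71, 7.59 and 7.47 after UV, without overlap of the groups. It fell by 1.76 (SE 0.20, adjusted p = 8.46e-05), a 3.39-fold decrease, and the third treated array, which has no control and does not enter the estimate, lay with the other treated arrays. In fibroblasts the controls were at 8.60, 8.56 and 8.29 and the treated arrays at 8.90, 8.28 and 8.19, so that the groups overlapped, with a change of -0.03 (95% interval -0.37 to 0.32, adjusted p = 1). The difference between the populations was -1.73 (95% interval -2.28 to -1.18, adjusted p = 0.00196). Its other probe-set gave -2.33 in CM-enriched fractions and a difference of -2.77. The adjusted p of the difference was 0.0524 without the arrays numbered 3.

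Slc2a3 rose in fibroblasts from 6.47, 6.60 and 6.91 to 7.49, 7.81 and 7.41, without overlap (change 0.91, SE 0.24, adjusted p = 0.0158), and its other probe-set rose by 1.86. In CM-enriched fractions its change was -0.10 (SE 0.30). The call was lost without the arrays numbered 1 (0.86, adjusted p = 0.149) or 2 (0.76, adjusted p = 0.208). Slc2a4, the insulin-responsive glucose carrier of muscle, was at 5.60, 5.36 and 5.46 in untreated fibroblasts and at 5.48, 2.78 and 4.49 after UV, where the groups overlap and a treated array is at the floor. Its fall of 1.23 (SE 0.37, adjusted p = 0.0316) came mostly from experiment 2, whose treated array is the one at the floor. Without the arrays numbered 2 the change was -0.55 (adjusted p = 0.397). Without those numbered 3 the fall was larger (-1.35) but not called (adjusted p = 0.161). The CM arrays of Slc2a4 were at 7.65 and 6.81 in controls and at 6.36, 6.21 and 6.04 after UV, without overlap, but the change of -0.95 (SE 0.46) was not called (adjusted p = 0.197). Slc2a4 is higher in CM than in FB controls, and the myocyte markers fell beside it in fibroblasts. The part of that shift was not tested. The other probe-set of Slc2a4 was not called after UV (-0.09 in CM-enriched fractions and -0.41 in fibroblasts).

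Slc37a4, which carries glucose 6-phosphate into the endoplasmic reticulum, rose in CM-enriched fractions from 7.57 and 7.23 to 8.36, 8.06 and 7.89 (change 0.81, SE 0.17, adjusted p = 0.00561), without overlap. In fibroblasts it changed by 0.17 (SE 0.14), and the difference was not called. Slc5a1, the sodium-coupled glucose carrier of the intestine, rose in CM-enriched fractions from 5.75 and 5.27 to 6.43, 6.06 and 6.19 (0.74, SE 0.18, adjusted p = 0.0156) and changed by -0.26 (SE 0.15) in fibroblasts, where the controls were at 6.80, 6.70 and 6.60 and the treated arrays at 6.53, 6.45 and 6.36. The difference of 0.99 was called (adjusted p = 0.0280). Its other probe-set was not called and had the opposite sign in both populations (-0.33 and 0.47), so the probe-sets of this gene disagree. The adjusted p of the difference was 0.229, 0.140 and 0.119 without the arrays numbered 1, 2 and 3 in turn. Slc2a5, a fructose carrier with low signal, was not called in either population.

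Of the 19 amino acid carriers, 1 rose and 2 fell in CM-enriched fractions (15.8%, against 16.8% of all probe-sets). In fibroblasts 1 rose and 3 fell (21.1% against 22.9%). Slc3a2, the heavy chain that brings several amino acid carriers to the cell surface, rose in both. It went from 8.96 and 9.03 to 9.65, 9.86 and 10.19 in CM-enriched fractions (0.76, SE 0.14, adjusted p = 0.00237) and from 10.45, 10.71 and 10.59 to 11.09, 11.31 and 11.12 in fibroblasts (0.60, SE 0.11, adjusted p = 0.00168), without overlap in either. Its other probe-set rose by 1.50 and 0.88. Slc7a5, a light chain that pairs with Slc3a2 and carries large neutral amino acids, had changes of 0.00 (95% interval -0.55 to 0.56) and -0.32 (-0.78 to 0.13) and was not called in either population. Without the arrays numbered 2 the adjusted p of Slc3a2 was 0.108 in CM-enriched fractions and 0.0511 in fibroblasts, with changes of 0.69 and 0.59.

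Slc7a1, the carrier of arginine and other cationic amino acids, fell in both populations. It was at 5.74 and 5.94 in the CM controls and at 4.87, 4.97 and 5.61 after UV, and at 6.72, 6.41 and 6.38 in the FB controls and at 5.92, 5.88 and 5.42 after UV. The groups overlapped in neither, and the changes were -0.92 (SE 0.22, adjusted p = 0.0139) and -0.76 (SE 0.18, adjusted p = 0.00835). Of its other 2 probe-sets the brighter fell by 1.47 and 1.43 and the dimmer, with a mean log2 of 4.55, was not called. Slc7a1 is lower in CM than in FB controls, and in CM-enriched fractions 3 of 8 fibroblast markers fell beside it. Slc1a3, a carrier of glutamate, fell in CM-enriched fractions from 8.92 and 8.59 to 7.53, 7.58 and 7.52 (-1.20, SE 0.26, adjusted p = 0.00741). In fibroblasts the controls were at 5.75, 5.55 and 6.45 and the treated arrays at 5.37, 5.68 and 5.36, which overlap (-0.45, adjusted p = 0.173). Without the arrays numbered 1 or 2, which leaves 1 CM pair, the adjusted p of Slc1a3 was 0.285 and 0.0636. Its other probe-sets were not called.

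The glycine carrier Slc6a9 fell in fibroblasts from 7.86, 8.11 and 8.21 to 6.93, 5.90 and 6.81 (-1.51, SE 0.40, adjusted p = 0.0142), without overlap. In CM-enriched fractions, with controls at 6.0 and 7.18 and treated arrays at 7.36, 5.90 and 5.70, the change was 0.04, and the difference of 1.55 (95% interval 0.19 to 2.92) was not called (adjusted p = 0.185). The fall in fibroblasts was no longer called without the arrays numbered 3 (-1.57, adjusted p = 0.158). Slc6a18, a carrier of neutral amino acids with low signal, fell in fibroblasts from 3.99, 5.57 and 5.21 to 2.78, 4.40 and 3.00 (-1.53, SE 0.47, adjusted p = 0.0341), with a treated array at the floor and overlapping groups. Its adjusted p was 0.203 without the arrays numbered 1 and 0.128 without those numbered 2.

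Among the 33 ion carriers, 3 rose and 4 fell in CM-enriched fractions (21.2%, against 16.8% of all probe-sets). In fibroblasts 4 rose and 6 fell (30.3% against 22.9%). Slc30a1, which exports zinc from the cytosol, had the largest rise of all members in either population. The CM controls were at 4.05 and 4.21 and the treated arrays at 6.80, 5.36 and 4.91. In fibroblasts the controls were at 4.65, 4.31 and 4.13 and the treated arrays at 6.15, 7.17 and 5.88. Every treated array was above every control of its population, and the changes were 1.95 (SE 0.35, adjusted p = 0.00217), a 3.86-fold rise, and 2.03 (SE 0.28, adjusted p = 0.000182), a 4.10-fold rise. Both groups of controls lay below the median signal. The CM rise was not called without the arrays numbered 1 (1.15, adjusted p = 0.163). Slc30a4, another zinc carrier, rose in fibroblasts (0.57, SE 0.12, adjusted p = 0.00459) and had a change of 0.41 in CM-enriched fractions (adjusted p = 0.0872).

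The iron exporter Slc40a1 went in opposite directions. In fibroblasts it was at 8.51, 9.04 and 9.18 in controls and at 7.28, 7.08 and 7.89 after UV, a 2.81-fold fall (-1.49, SE 0.18, adjusted p = 4.65e-05). In CM-enriched fractions it was at 4.77 and 5.53 in controls and at 5.82, 6.07 and 5.98 after UV (0.80, SE 0.21, adjusted p = 0.0234). The groups overlapped in neither population, and the difference of 2.29 had a 95% interval of 1.69 to 2.90 (adjusted p = 0.000695). The other probe-set fell by 1.24 in fibroblasts and gave a difference of 1.90 (adjusted p = 0.00413), but its change in CM-enriched fractions, 0.66, was not called (adjusted p = 0.0872). The CM rise was also lost without the arrays numbered 1 (0.55, adjusted p = 0.285), 2 (1.05, adjusted p = 0.0725) or 3 (0.80, adjusted p = 0.0800). Slc11a2, which carries ferrous iron into cells, fell slightly in both (-0.47, SE 0.12, adjusted p = 0.0158, and -0.34, SE 0.09, adjusted p = 0.0187), and its other probe-sets were not called.

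**Figure D3:**
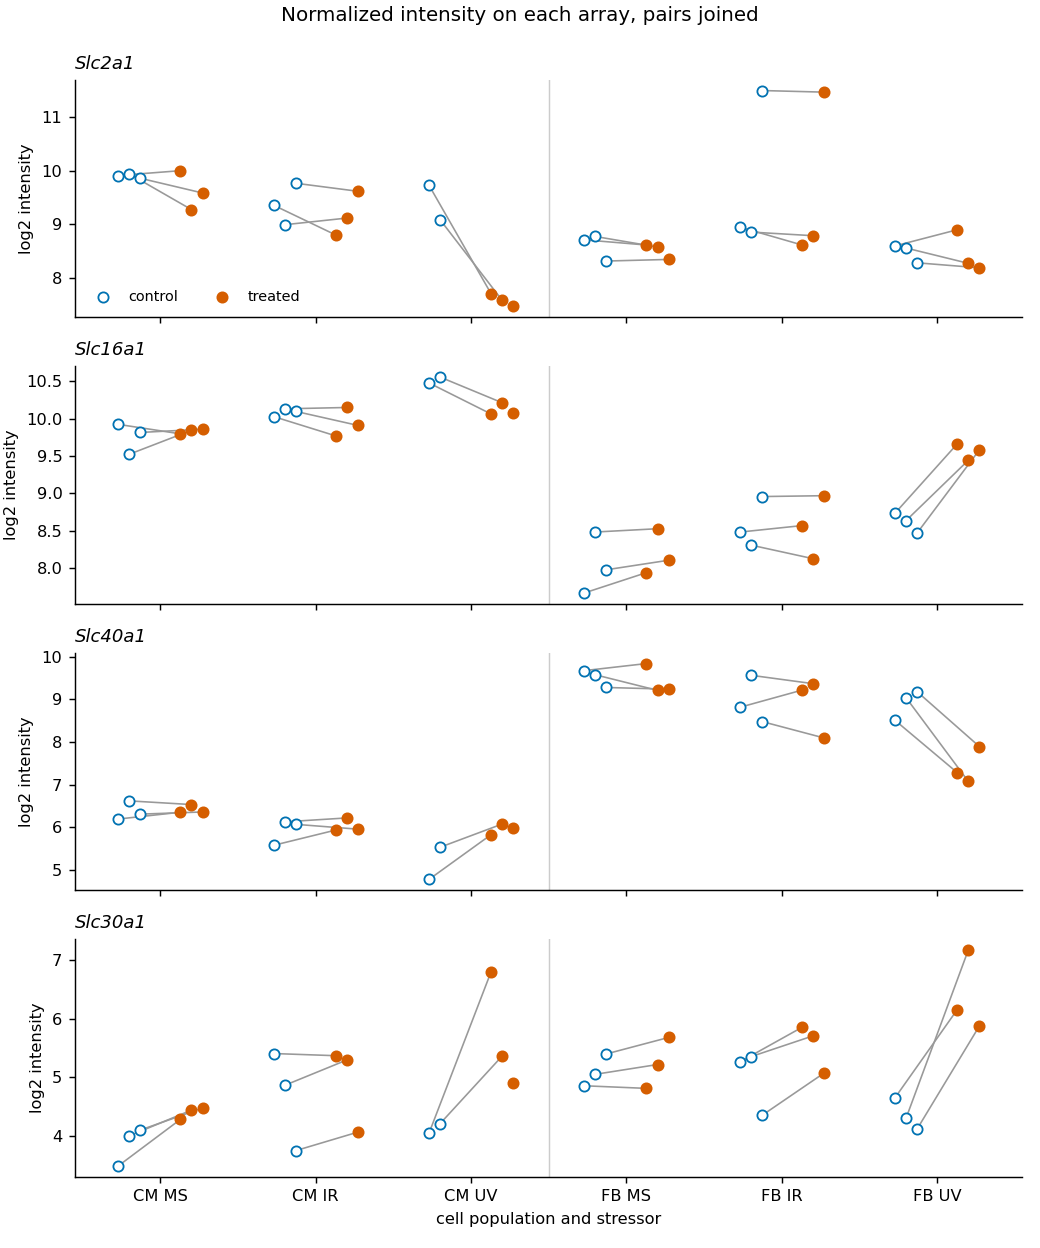
Normalized log2 intensity of Slc2a1, Slc16a1, Slc40a1 and Slc30a1 on each of the 35 arrays, by population and stressor, with control (open) and treated (filled) arrays of the same experiment joined by a line. The 3 CM arrays of Slc2a1 after UV sit between 7.47 and 7.71, below every other CM array, and the isolated Slc2a1 pair at 11.49 and 11.46 is the third IR experiment on fibroblasts.

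Slc12a4, a potassium-chloride cotransporter active in cell volume control, rose in both populations, from 8.39 and 9.0 to 9.66, 9.79 and 9.88 in CM-enriched fractions (1.03, SE 0.18, adjusted p = 0.00188) and from 8.39, 8.23 and 8.30 to 9.32, 9.55 and 9.34 in fibroblasts (1.10, SE 0.15, adjusted p = 0.000128). No arrays overlapped. The sodium-potassium-chloride cotransporter Slc12a2 was not called (-0.29 and 0.28). Slc4a2, which exchanges chloride for bicarbonate, rose in fibroblasts from 7.29, 7.05 and 7.50 to 8.32, 8.76 and 8.50 (1.24, SE 0.21, adjusted p = 0.00081). Its brightest probe-set was not called in CM-enriched fractions (0.50, adjusted p = 0.229), while its other probe-set was (2.34, adjusted p = 0.0132), so that no statement on CM-enriched fractions is made for this gene.

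Ion carriers that fell in both populations included the magnesium carriers Slc41a2 and Slc41a3 and the sodium-bicarbonate cotransporter Slc4a4. Slc41a2 went from 7.28, 6.91 and 6.81 to 5.76, 6.10 and 5.76 in fibroblasts (-1.13, SE 0.13, adjusted p = 5.41e-05). In CM-enriched fractions it went from 4.91 and 5.64 to 3.52, 4.57 and 4.92 (-1.23, SE 0.17, adjusted p = 0.000322), falling within both pairs although the groups overlapped in the unpaired array. Slc41a3 fell by 0.60 (SE 0.14) in CM-enriched fractions and 0.44 (SE 0.11) in fibroblasts, within each pair but with overlapping groups. Slc4a4, with low signal, was at 4.70 and 3.95 in the CM controls and at the floor of 2.78 on all 3 treated arrays, so its fall of 1.54 (SE 0.38, adjusted p = 0.0148) is a lower limit. In fibroblasts it went from 5.11, 5.40 and 5.23 to 3.33, 3.97 and 3.67 (-1.59, SE 0.31, adjusted p = 0.00207). Slc17a1, a sodium-phosphate cotransporter of the kidney, fell in fibroblasts from 4.11, 3.38 and 4.23 to 2.78, 2.82 and 2.78 (-1.12, adjusted p = 0.0106), also at the floor, and was at the floor on 23 of 35 arrays, with its other probe-sets not called. Of these ion carriers, Slc41a2 and Slc4a4 are lower in CM than in FB controls, and 3 of 8 fibroblast markers fell beside them in CM-enriched fractions. Slc41a3 is higher in CM, and the myocyte markers fell beside it in fibroblasts.

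Mitochondrial carriers were nearly all measured well, and 3 of 12 were called in each population (25%). Of all probe-sets at or above the median signal, 26.9% were called in CM-enriched fractions and 37% in fibroblasts. Slc25a26, which brings S-adenosylmethionine into mitochondria, had the largest fall of all members in CM-enriched fractions. It was at 9.47 and 9.95 in controls and at 7.48, 8.0 and 7.74 after UV, a 3.93-fold decrease (-1.97, SE 0.20, adjusted p = 4.12e-05). In fibroblasts it went from 6.39, 6.33 and 6.22 to 4.94, 5.16 and 4.61 (-1.41, SE 0.16, adjusted p = 3.68e-05), again without overlap. Slc25a10, the dicarboxylate carrier, rose from 7.83 and 7.71 to 8.40, 8.30 and 8.30 (0.58, SE 0.14, adjusted p = 0.0126) and from 7.17, 7.26 and 7.31 to 7.97, 8.03 and 7.95 (0.73, SE 0.11, adjusted p = 0.000409). Its other 2 probe-sets rose in fibroblasts (1.34 and 1.32) and were not called in CM-enriched fractions (0.59 and 0.84). Slc25a5, an ADP/ATP carrier, fell by 0.30 (SE 0.08, adjusted p = 0.0294) and 0.21 (SE 0.07, adjusted p = 0.0445). In CM-enriched fractions that fall was close to 0 without the arrays numbered 1 (-0.08, adjusted p = 0.753). Slc25a26 and Slc25a5 are higher in CM than in FB controls, and the myocyte markers fell beside them in fibroblasts. Slc25a3 and Slc25a4 are higher in CM controls too but were not called after UV. The part of the markers' shift was not tested.

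The brightest mitochondrial carriers moved little. Slc25a3, the phosphate carrier, was at 12.29 and 12.44 in the CM controls and at 12.34, 12.48 and 12.43 after UV, with a change of 0.04 (95% interval -0.18 to 0.27). In fibroblasts it was at 11.39, 11.47 and 11.48 and then at 11.52, 11.18 and 11.74 (0.03, interval -0.15 to 0.22). Slc25a4, the main ADP/ATP carrier of heart muscle, changed by -0.04 (interval -0.22 to 0.14) in CM-enriched fractions. For both genes a change of 2-fold lies outside these intervals. Slc25a20, the carnitine-acylcarnitine carrier, changed by 0.09 and -0.04, and the oxoglutarate carrier Slc25a11 (-0.33 and -0.39) and the citrate carrier Slc25a1 (-0.57 and 0.07) were not called.

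Of the 47 carriers of other solutes, 7 rose and 3 fell in CM-enriched fractions (21.3%, against 16.8% of all probe-sets). In fibroblasts 5 rose and 4 fell (19.1% against 22.9%). The carriers of lactate and other monocarboxylates were among these 47. Slc16a1 was at 8.74, 8.64 and 8.47 in untreated fibroblasts and at 9.66, 9.44 and 9.58 after UV, a 1.92-fold rise (0.94, SE 0.09, adjusted p = 6.16e-06). In CM-enriched fractions it was at 10.47 and 10.55 and then at 10.06, 10.21 and 10.08, without overlap, a change of -0.38 (SE 0.11, adjusted p = 0.0278). The difference of -1.32 had a 95% interval of -1.62 to -1.03 (adjusted p = 0.000244). The other probe-set rose in fibroblasts too (1.17) and gave a difference of -1.55 (adjusted p = 0.00196), but its fall in CM-enriched fractions was not called (-0.38, adjusted p = 0.176). The CM fall was lost without the arrays numbered 1 (-0.34, adjusted p = 0.284) or 3 (-0.38, adjusted p = 0.103).

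Slc16a3 fell in both populations, from 9.09 and 9.48 to 7.40, 8.03 and 8.41 in CM-enriched fractions (-1.57, SE 0.24, adjusted p = 0.000849) and from 6.88, 6.85 and 6.62 to 6.30, 5.66 and 6.25 in fibroblasts (-0.71, SE 0.20, adjusted p = 0.0191). The groups overlapped in neither. It is higher in CM than in FB controls, and in fibroblasts the myocyte markers fell beside it. Its fall in fibroblasts was lost without the arrays of any 1 experiment number (adjusted p = 0.0623, 0.313 and 0.0544).

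Carriers of organic osmolytes and of creatine were called in both populations. Slc6a8, the creatine carrier, rose from 7.80 and 8.20 to 9.25, 9.07 and 8.78 in CM-enriched fractions (1.16, SE 0.19, adjusted p = 0.00128) and from 7.68, 7.61 and 7.97 to 9.09, 9.24 and 8.86 in fibroblasts (1.31, SE 0.16, adjusted p = 4.94e-05). Slc6a6, the taurine carrier, fell from 6.79, 6.57 and 7.69 to 5.12, 5.12 and 6.54 in fibroblasts, within each pair (-1.42, SE 0.13, adjusted p = 5.64e-06). In CM-enriched fractions it went from 7.53 and 6.51 to 6.71, 5.66 and 5.79, with overlap between pairs but a fall within both (-0.84, SE 0.16, adjusted p = 0.00306). Slc5a3, the myo-inositol cotransporter, rose by 0.92 (SE 0.26, adjusted p = 0.0313) and 0.81 (SE 0.21, adjusted p = 0.0143). Creatine, taurine and myo-inositol carriers thus did not all move one way. Without the arrays numbered 1 or 2 the adjusted p of the CM fall of Slc6a6 was 0.146 and 0.0843.

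Slc15a4, a lysosomal carrier of histidine and small peptides, rose from 6.52 and 6.69 to 7.59, 7.25 and 7.31 in CM-enriched fractions (0.81, SE 0.18, adjusted p = 0.0086) and from 6.20, 6.03 and 6.52 to 7.40, 7.90 and 7.87 in fibroblasts (1.48, SE 0.15, adjusted p = 1.21e-05). Slc5a6, which carries biotin and pantothenate, rose from 7.47 and 7.73 to 8.08, 8.27 and 8.44 (0.58, SE 0.17, adjusted p = 0.0336) and from 7.21, 7.47 and 7.52 to 8.35, 8.61 and 8.50 (1.09, SE 0.14, adjusted p = 8.11e-05), and its other probe-set rose by 1.39 and 1.71. No groups overlapped in these comparisons. The carnitine carrier Slc22a5 was at 5.62 and 3.79 in the CM controls and at 6.19, 6.57 and 6.84 after UV, a rise of 1.68 (SE 0.44, adjusted p = 0.0201) that came mostly from pair 2: without the arrays numbered 2 it was 0.57 (adjusted p = 0.246). The fatty acid carrier Slc27a1 rose in CM-enriched fractions from 7.01 and 7.01 to 7.46, 7.47 and 7.90 (0.46, SE 0.13, adjusted p = 0.0287) and changed by 0.01 in fibroblasts (95% interval -0.22 to 0.24). Without the arrays numbered 1 or 2 its adjusted p was 0.234 and 0.262.

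Slc37a1, which exchanges glucose 6-phosphate for phosphate, rose in CM-enriched fractions from 3.67 and 3.72 to 4.41, 5.38 and 4.86 (1.20, SE 0.20, adjusted p = 0.00174). It has low signal and lay at the floor on every fibroblast array of the UV experiments, so the difference of 1.20 (adjusted p = 0.0196) sets a rise against values that could not fall. The adjusted p of that difference was 0.177 and 0.156 without the arrays numbered 2 and 3. In fibroblasts Slc22a18 fell from 6.12, 6.20 and 6.06 to 4.40, 5.86 and 5.21 (-0.97, SE 0.21, adjusted p = 0.00508) and Slc35b1 from 9.89, 10.06 and 10.10 to 9.63, 9.94 and 9.65 (-0.27, SE 0.07, adjusted p = 0.0174), the latter with overlap.

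Many calls after UV were lost when arrays were left out. Leaving out a number takes arrays from every group of the shared fit, so a lost call can also reflect lower precision. The CM array after UV numbered 3 has no control, so leaving out number 3 did not alter the CM changes after UV. When the arrays of 1 experiment number were left out of every group, 19 (number 1), 15 (number 2) and 8 (number 3) of the 26 calls in CM-enriched fractions were lost, and without number 1 or 2 a single CM pair was left. Slc2a1, Slc16a3, Slc25a26 and Slc41a2 were called in CM-enriched fractions each time. Lost without number 1 were also Slc12a4 (0.80, adjusted p = 0.0617), Slc6a8 (0.87, adjusted p = 0.136) and Slc15a4 (0.56, adjusted p = 0.344), and Slc25a10, Slc37a4, Slc7a1, Slc11a2, Slc4a4, Slc5a3 and Slc5a6 were lost without 1 and without 2. Slc41a3 and Slc25a5 were lost without 1 and without 3, Slc22a5 without 2 and without 3, Slc5a3 and Slc5a6 also without 3, Slc5a1 each time and Slc37a1 without 2. In fibroblasts 10, 12 and 10 of 28 calls were lost. Kept each time in fibroblasts were Slc12a4, Slc15a4, Slc16a1, Slc25a10, Slc25a26, Slc30a1, Slc40a1, Slc41a2, Slc4a2, Slc5a6, Slc6a6 and Slc6a8. Slc11a2 and Slc35b1 were lost without any 1 of the numbers, Slc7a1 and Slc30a4 without 1 or 2, Slc17a1 and Slc22a18 without 1 or 3, Slc25a5, Slc41a3 and Slc5a3 without 2 or 3, and Slc4a4 without 1. The difference between the populations was kept each time for Slc16a1 and Slc40a1.

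No member was called after MS or IR. After MS no probe-set of the array was called in either population (0%), and after IR 0.732% were in CM-enriched fractions (0.286% higher and 0.446% lower) and 0.0801% in fibroblasts (0.0343% higher and 0.0458% lower). At an unadjusted p under 0.05, limma gave 7 members in CM-enriched cultures and 5 in fibroblasts after MS, and 11 and 8 after IR. These are 5.88%, 4.2%, 9.24% and 6.72% of the members, where 4.74%, 5.35%, 11.4% and 6.85% of all probe-sets passed. Members mostly at the floor have narrow intervals because they do not leave it, and they were set aside here. Of the other 100 members, the 95% interval of the change lay within 2-fold in either direction for 74 and 75 after MS (CM and FB) and for 76 in each population after IR. For the 58 members at or above the median signal this held for 54 to 57, with a median SE of 0.162, and for the 42 with low signal for 19 to 21, with a median SE of 0.336. A change of 2-fold or more was outside the interval for nearly all bright carriers, but not for most of the dim ones.

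Of the 35 carriers called after UV in at least 1 population, 33 had a change under 0.5 in either direction after MS in CM-enriched cultures, 35 after MS in fibroblasts, 34 after IR in CM-enriched fractions and 33 after IR in fibroblasts. Beyond that limit were Slc4a4 (0.50 after MS in CM and -0.71 after IR in FB), Slc30a1 (0.54 after MS in CM and 0.55 after IR in FB) and Slc6a9 (1.25 after IR in CM), none called. Slc2a1 changed by -0.28 and -0.09 after MS and by -0.19 and -0.14 after IR (CM and FB), and all 4 intervals lay between -0.63 and 0.26. Slc16a1 had changes between -0.14 and 0.15 in these 4 comparisons, Slc40a1 between -0.08 and 0.11 and Slc25a26 between -0.10 and 0.09. Slc30a1 had positive values in all 4, with 0.13 after MS in FB and 0.24 after IR in CM as the other 2. Of the other genes chosen to be named, Slc3a2, Slc25a3, Slc25a4 and Slc25a5 had changes between -0.18 and 0.08 in each of these comparisons. Slc2a4 had 0.38 and -0.35 after MS and -0.40 after IR in CM, Slc2a3 had 0.31 after MS in FB and -0.33 after IR in CM, Slc7a1 had 0.30 after MS in FB, Slc25a20 had -0.31 after MS in CM, and Slc6a6 had 0.36 there.

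**Figure D4:**
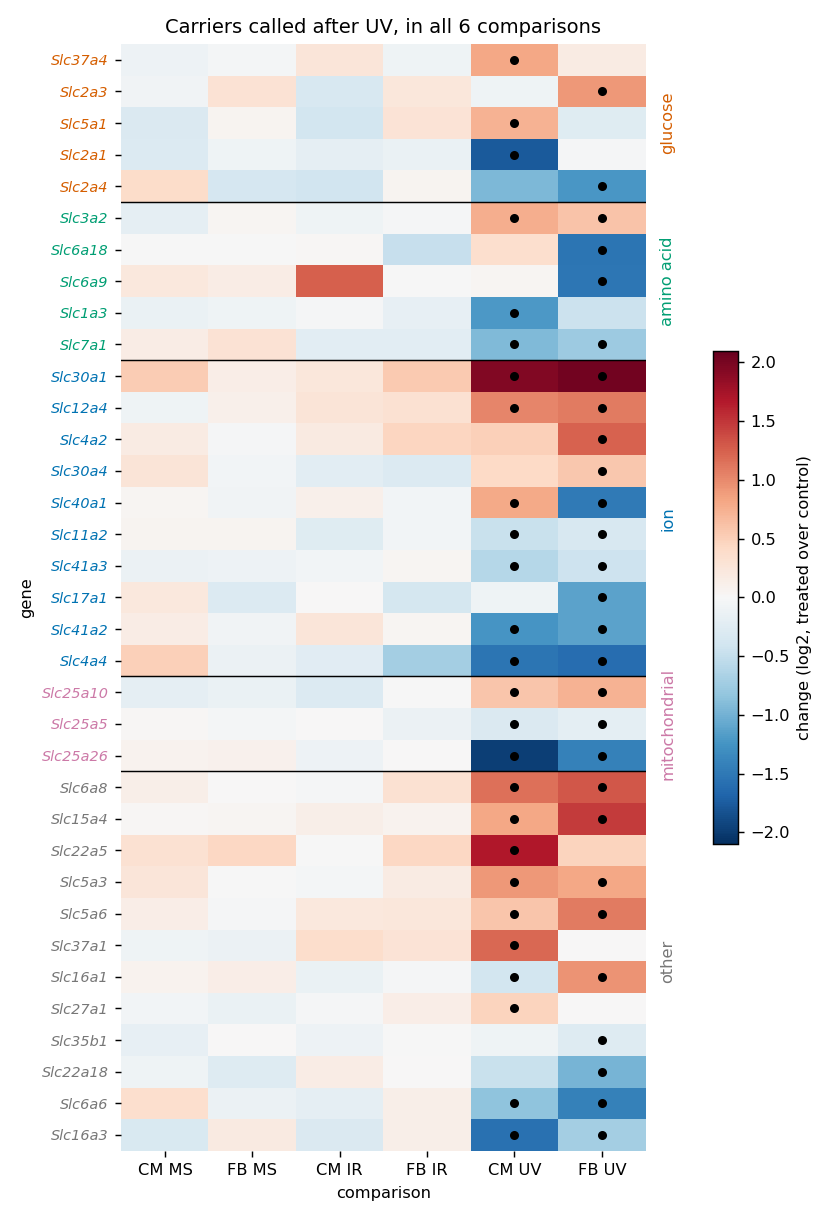
Change (log2, treated minus control) of the 35 carriers called after UV in at least 1 population, in each of the 6 comparisons, grouped by carrier group. Red is higher and blue lower in treated arrays, and a black dot marks a call at an adjusted p under 0.05. All dots lie in the last 2 columns (CM UV and FB UV).

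The members with the smallest unadjusted p after MS were Slc6a6, Slc1a2 and Slc8a2 in CM-enriched cultures and Slc9a2, Slc8a2 and Slc34a1 in fibroblasts. Slc6a6 was at 7.72, 6.86 and 7.06 in CM controls and at 8.23, 7.34 and 7.14 after stretch, with overlap (0.36, SE 0.13, adjusted p = 1). Slc8a2, a sodium-calcium exchanger, was at 6.05, 6.13 and 6.17 in CM controls and at 5.61, 5.78 and 5.50 after stretch without overlap (-0.49, adjusted p = 1). In fibroblasts it was at 5.43, 4.72 and 4.94 and then at 5.65, 5.78 and 5.37, with overlap (0.57, adjusted p = 0.857). The difference between the populations for Slc8a2 was -1.06 and was not called (adjusted p = 1). The other 3, Slc1a2, Slc9a2 and Slc34a1, have low signal and a value at the floor in the comparison, with changes of -1.34, 0.51 and 0.81.

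After IR the smallest unadjusted p in CM-enriched fractions belonged to Slc6a9, at 5.44, 6.49 and 5.51 in controls and at 7.0, 7.79 and 6.42 after X-rays. It was higher in each pair although the groups overlapped (1.25, SE 0.40, adjusted p = 0.236). Slc28a2, a nucleoside carrier (-1.03), and Slc13a2, a dicarboxylate carrier of the kidney (0.79), have low signal and were not called. Slc5a5, the iodide carrier, was at 2.78, 3.39 and 3.35 in controls and at 4.38, 5.30 and 2.89 after X-rays (1.02, adjusted p = 0.670), and without the arrays numbered 3 it was called (1.75, adjusted p = 0.0440). In fibroblasts Slc20a2, a phosphate carrier, was at 7.08, 7.36 and 7.59 in controls and at 7.93, 7.65 and 7.77 after X-rays, without overlap (0.44, SE 0.15, adjusted p = 0.582). Its change in CM-enriched fractions was -0.39, and the difference of -0.83 was not called (adjusted p = 0.356). Slc22a6 (1.34) and Slc6a13 (-1.14) have low signal and were not called in fibroblasts. None of the 119 members was called for a difference between the populations after MS or IR, where 0% and 0.0686% of all probe-sets were (for IR 0.0343% in each direction). At an unadjusted p under 0.05 limma gave 6 members for MS (5.04%, against 4.18% of all probe-sets) and 9 for IR (7.56% against 8.66%).

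Untreated CM and fibroblast samples differed in many carriers. Over the 17 control arrays, 24 members were higher and 21 lower in CM (37.8% of 119), where 35.9% of all probe-sets were called (16.6% higher and 19.4% lower). Among probe-sets at or above the median signal 52.7% were called (23.4% higher and 29.3% lower). Culture history, serum and, for the IR and UV controls, elutriation differ with the population and cannot be told apart from it. Array scaling went partly with it too. The CM controls of IR and CM UV control 2 had a trimmed mean of 1001.5 to 1001.7, and all other controls 200.33 to 200.38. The study's methods name labelling kits of different makers, the same within an experiment, and the kit was not a term of this comparison. The CM controls of the MS experiments were on the plates used for stretch and were not elutriated. By the study's methods, the MS cultures also held a lower share of myocytes than the elutriated fractions. Plates, elutriation, the share of myocytes and array scaling cannot be told apart where the MS controls alone gave another difference. All 7 myocyte markers on the array were higher in CM controls and 7 of 8 fibroblast markers were lower. The endothelial markers Pecam1 and Kdr were higher in CM controls too (3.83 and 3.25), with the other 2 on the array not called. Of 4 smooth muscle markers, Cnn1 was higher in CM controls (2.74) and Tagln (-1.13) and Acta2 (-0.68) were lower. The part of these cell types in the carriers' differences was not tested.

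The mitochondrial carriers were the group most often higher in CM, with 8 of 12 higher and 2 lower (83.3% called, median difference 0.67). Of all probe-sets at or above the median signal, 23.4% were higher and 29.3% lower. Slc25a3 lay between 11.99 and 12.44 in the 8 CM controls (median 12.27) and between 11.20 and 11.48 in the 9 FB controls (median 11.34). The groups did not overlap, and the difference was 0.88 (SE 0.05, adjusted p = 3.13e-08). Slc25a4 lay between 12.12 and 12.42 (median 12.36) in CM and between 11.39 and 11.87 (median 11.47) in FB, again without overlap (0.76, SE 0.05, adjusted p = 5.94e-08). Slc25a11 was 2.05-fold higher (1.04, SE 0.08) and Slc25a26 4.77-fold higher (2.25, SE 0.36, adjusted p = 0.000183). For Slc25a26 the CM controls of the MS experiments, which were not elutriated, lay between 6.83 and 7.34 and those of IR and UV between 8.66 and 9.95. In the MS controls alone its difference was 0.69 and not called (adjusted p = 0.295). Slc25a23, a carrier of ATP-magnesium and phosphate with low signal, was 2.38 higher, and Slc25a30 (0.77), Slc25a10 (0.58) and Slc25a5 (0.44) were higher too. Slc25a1 (-0.78) was lower, as was Slc25a17 (-0.60), the carrier of peroxisomes that is in this group by its symbol.

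**Figure D5:**
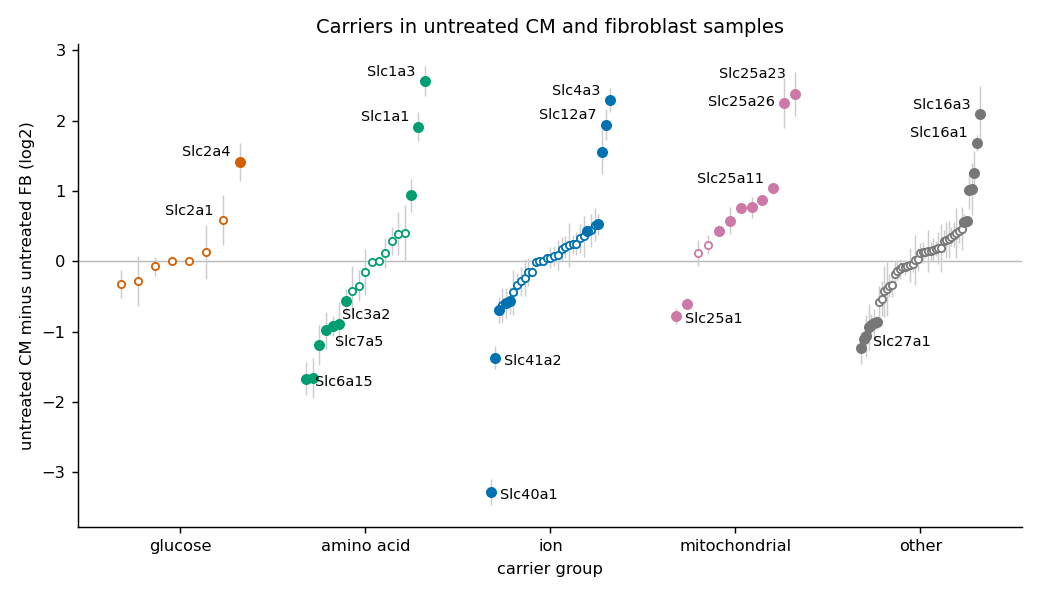
Difference between untreated CM and untreated fibroblast samples (log2, CM minus FB) for each carrier, ordered within its carrier group, with the standard error as a grey bar. Filled points are called at an adjusted p under 0.05. Most mitochondrial carriers lie above 0, Slc1a3, Slc4a3 and Slc25a23 lie highest in their groups, and Slc40a1 lies lowest of all at -3.28.

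Slc40a1 showed the largest difference of all members. It lay between 4.77 and 6.62 in CM controls (median 6.10) and between 8.48 and 9.68 in FB controls (median 9.18), 9.70-fold lower in CM (-3.28, SE 0.18, adjusted p = 2e-08). Among the ion carriers 5 were higher and 5 lower (30.3%, against 35.9% of all probe-sets). Slc4a3, the chloride-bicarbonate exchanger of heart and brain, was higher in CM, between 7.79 and 9.43 (median 8.84) against 6.17 to 7.16 (median 6.50), without overlap (2.29, SE 0.17, adjusted p = 2.2e-07). Also higher were the potassium-chloride cotransporter Slc12a7 (1.94, SE 0.22), Slc12a3 with low signal (1.55), Slc20a2 (0.53) and Slc41a3 (0.43), and lower were Slc41a2 (-1.37), Slc4a4 (-0.69), Slc30a4 (-0.59) and Slc17a1 (-0.56).

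Of the amino acid carriers 3 were higher and 7 lower in CM (52.6%, against 35.9% of all probe-sets). Slc1a3 lay between 7.46 and 9.15 in CM controls (median 8.41) and between 5.33 and 6.45 in FB controls (median 5.75), a 5.91-fold difference (2.56, SE 0.22, adjusted p = 6.98e-07). Slc1a1 (1.92) and Slc3a1 (0.94), both with low signal, were higher as well. Slc3a2 was lower in CM, between 8.96 and 10.01 (median 9.62) against 10.13 to 10.71 (median 10.40), without overlap (-0.92, SE 0.15, adjusted p = 0.000184). Its partner Slc7a5 was lower too (-0.98, SE 0.26, adjusted p = 0.00877), as were Slc7a1 (-0.56) and Slc6a9 (-0.89), and with low signal Slc7a2 (-1.19), Slc6a15 (-1.66) and Slc6a18 (-1.66). In the MS controls alone Slc3a2 (-0.36, adjusted p = 0.0631) and Slc7a5 (-0.25, adjusted p = 0.640) were not called. For Slc6a9 the difference turned to 0.42 in the MS controls alone (adjusted p = 0.308).

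Slc2a4 was the glucose carrier called, 2.67-fold higher in CM (1.41, SE 0.27, adjusted p = 0.000881), and it was not called in the controls of MS alone (0.90, adjusted p = 0.296) or of IR alone (1.65, adjusted p = 0.0801). Slc2a1 lay between 8.99 and 9.94 in CM controls (median 9.75) and between 8.29 and 11.49 in FB controls (median 8.71), and its difference of 0.59 was not called (adjusted p = 0.231). Without the third IR experiment on fibroblasts, left out after its values were seen, Slc2a1 was 0.93 higher in CM (adjusted p = 0.000281) and Slc2a3 0.49 higher (adjusted p = 0.0489), both then called, and Slc6a9 was no longer called (-0.85, adjusted p = 0.0682). The counts were then 31 higher and 21 lower. The share of all probe-sets called without that experiment is not given here, nor for the counts after UV that follow. Without that experiment UV raised 15 carriers and lowered 12 in CM-enriched fractions, raised 12 and lowered 16 in fibroblasts and gave 5 called differences, and no member was called after MS or IR.

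Among the carriers of other solutes 7 were higher and 7 lower (29.8%, against 35.9% of all probe-sets). The lactate carrier Slc16a1 lay between 9.52 and 10.55 in CM controls (median 10.06) and between 7.67 and 8.96 in FB controls (median 8.48), without overlap (1.69, SE 0.12, adjusted p = 1.23e-07). Slc16a3 was 4.26-fold higher (2.09, SE 0.40, adjusted p = 0.000785), with CM controls at 6.54 to 7.64 in the MS experiments and at 8.24 to 9.48 in the others. Slc29a2 (0.57) and the urea carrier Slc14a1 (0.56) were also higher, and with low signal Slc28a2 (1.26), Slc22a2 (1.03) and Slc37a1 (1.01), the last of which was at -0.03 in the MS controls alone (adjusted p = 0.934). Slc27a1 was 2.15-fold lower in CM (-1.10, SE 0.08). The nucleoside carrier Slc29a1 (-0.88), Slc35a1, which carries CMP-sialic acid into the Golgi (-0.91), Slc22a18 (-0.86), and with low signal Slc35f6 (-1.23), Slc16a8 (-1.06) and Slc22a6 (-0.94) were lower.

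When the controls numbered 1, 2 or 3 were left out, 12, 12 and 5 of the 45 calls between the untreated populations were lost. Slc6a9 was lost each time, Slc37a1, Slc16a8, Slc7a1, Slc25a10 and Slc30a4 without 1 and without 2, Slc22a2, Slc22a6 and Slc20a2 without 2 and without 3, Slc17a1 without 1 and without 3, Slc28a2, Slc3a1, Slc7a5, Slc7a2 and Slc4a4 without 1, and Slc12a3, Slc29a1 and Slc41a3 without 2. In the controls of IR alone 26 calls were lost and in those of UV alone 23. In those of MS alone 20 were lost and 2 more, Slc37a1 and Slc6a9, were not called with their sign turned. Slc1a3, Slc4a3, Slc16a1, Slc25a3, Slc25a4, Slc25a11, Slc40a1, Slc41a2 and Slc27a1 were kept under every alternative run. The taurine carrier Slc6a6 was not called over all controls (-0.53) and was called without number 1 (-0.93, adjusted p = 0.0256).

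Partner proteins of the carriers were counted from a list of 9, the subunits of the sodium-potassium pump that keeps the sodium gradient and the chaperones basigin (Bsg) and embigin (Emb) of the lactate carriers. Of the 6 on the array, all at or above the median signal, none was called in CM-enriched fractions after UV. There 16.8% of all probe-sets were called (26.9% in that range). At an unadjusted p under 0.05 limma gave 1 (28.9% of all probe-sets), Fxyd1 (-0.43, adjusted p = 0.0536). In fibroblasts Atp1b3 (0.33) and Bsg (0.27) rose and Atp1b1 (-0.90) and Fxyd1 (-0.86) fell, where 22.9% of all probe-sets were called (37% in that range). Atp1b1, Fxyd1 and Bsg are higher in CM than in FB controls, and the myocyte markers fell in these fibroblast cultures. The part of that shift was not tested. In controls 5 of 6 were higher in CM, where 16.6% of all probe-sets were (23.4% in that range). These were Fxyd1 (2.41), Atp1b1 (1.83), Atp1b2 (1.0), Bsg (0.55) and Emb (0.49).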

How the data were processed

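RNA of 35 samples was measured on Affymetrix rat genome arrays. The authors deposited a table of linear intensities, 8799 probe-sets by array. Which software made these intensities is not given in the sources used here, and the gcrma, VSN and probe-level model of the study's methods could not be applied to them. A trimmed mean, read from the values, lay at 200.33 to 200.38 on 26 arrays and at 1001.5 to 1001.7 on 9 (all CM IR arrays, CM UV control 2, treated 2 and treated 3). Each array was scaled to its 75th percentile, given a common floor, the 20th percentile over the scaled table (6.88), log2 transformed and quantile normalized, and 14.5% to 24.7% of the values of an array lay at the floor. The 59 control probe-sets were left out. Replicates of a group correlated with a Spearman rho of 0.922 to 0.979, and no arrays were identical. The number of arrays limits the precision.

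A single limma fit over every array (limma 3.58.1 in R 4.3.3, lmFit and eBayes with trend) was used, with the numbered experiment within population and stressor as a block, as the study's model has such a term (11 residual degrees of freedom). Tests were two-sided, with Benjamini-Hochberg adjustment over 8740 probe-sets. The untreated populations were compared over 17 control arrays with a term for the stressor. Symbols came from the array annotation (7006 probe-sets with 1 symbol, 6985 matched to a RefSeq gene table by gene number), and 2 probe-sets with several symbols, an Slc gene among them, were left out. Alternatives were other scalings, floors and thresholds, a pseudocount of 16, no block, a random block (statmod 1.5.0) and arrays left out.

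Named are all members called (for the controls the 15 largest rises and 15 largest falls), the 3 smallest unadjusted p where none was called, and a short list of carriers chosen by name, 1 of which is not reported here. Further genes called in the controls were named after their values were seen. The members and lists were chosen with earlier results of these data known. Same-numbered control and treated arrays deviated together with correlations of 0.06 to 0.80 over 17 pairs, 15 of them over 0.1, and the methods describe experiments as the unit.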

Additional observations from a re-analysis of the deposited data

Results flagged for a closer look

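The change after UV differed between CM-enriched fractions and fibroblasts, by a test of the difference itself, for 5 carriers. The difference (CM change minus FB change, log2) was -1.73 for the glucose carrier Slc2a1, which fell in CM-enriched fractions, and -1.32 for the lactate carrier Slc16a1, which fell in CM-enriched fractions and rose in fibroblasts. It was 2.29 for the iron exporter Slc40a1, which rose in CM-enriched fractions and fell in fibroblasts. It was 1.20 for Slc37a1, whose fibroblast values all lay at the floor, and 0.99 for Slc5a1, whose other probe-set had the opposite sign. The differences of Slc16a1 and Slc40a1 were lost under 1 alternative each, and the others under 4 or more. The changes of Slc16a1 and Slc40a1 in CM-enriched fractions held less well. Neither was called with no replicate block or with 75th percentile scaling alone, and the other probe-set of each was not called there.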

How the results depend on the processing

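Counts under the alternatives are given without the share of all probe-sets called in the same run. The numbered experiment as a block decided many calls. With no replicate block after UV, 9 members rose (14 with it) and 3 fell (12) in CM-enriched fractions, 9 fell in fibroblasts (16), and 2 differences between the populations were called (5). Among these Slc2a1 was not called in CM-enriched fractions (adjusted p = 0.0709), nor its difference (adjusted p = 0.439). With a random block, 7 members were lower in CM-enriched fractions and 3 differences were called. Fits on the arrays of a comparison alone, which for CM-enriched fractions are 5 arrays, gave 0 rises and 0 falls in CM-enriched fractions, 5 rises and 1 fall in fibroblasts and 0 differences.

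At an adjusted p under 0.005, 5 members rose and 5 fell in CM-enriched fractions, 5 fell in fibroblasts, with 3 differences and 13 members lower in untreated CM. Leaving out low-signal probe-sets also gave 13 lower in untreated CM. The controls of IR alone gave 12 higher and 9 lower in untreated CM, and those of UV alone 14 and 9. In the MS controls alone Slc37a1 stood at -0.034 and Slc6a9 at 0.42, each with its sign turned.

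With 1 experiment number or the third IR experiment on fibroblasts left out (the latter chosen after seeing the data), the counts after UV ran from 4 to 15 higher and 4 to 12 lower in CM-enriched fractions, 8 to 12 higher and 7 to 16 lower in fibroblasts and 2 to 6 differences, and from 0 to 1 higher after IR in CM-enriched fractions. No other count after MS or IR left 0 under any alternative run, scan or array lot as a block included. Scaling, floor and pseudocount kept every UV count within 1.5 times, but single calls were lost. With 75th percentile scaling alone these were, in CM-enriched fractions, Slc16a1 (adjusted p = 0.0592), Slc40a1 (0.118), Slc25a5 (0.180) and Slc5a1 (0.0554), in fibroblasts Slc25a5 (0.205) and Slc6a18 (0.0532), and the difference of Slc37a1 (0.140). With the pseudocount they were Slc25a5 in both populations (0.0540 and 0.0842), Slc17a1 in fibroblasts (0.0546) and the difference of Slc37a1 (0.0743). With the floor at the 40th percentile the change of Slc4a4 was -0.06 in CM-enriched fractions and -0.63 in fibroblasts, that of Slc37a1 in CM-enriched fractions and its difference were 0.38, and in fibroblasts Slc17a1 was at 0 and Slc6a18 at -0.51, none called. Members with low signal, and CM-enriched fractions after UV, with 2 pairs, are where precision is least.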
